A study of Mus musculus with 3 samples.

Results

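The HOX cluster genes encode homeodomain transcription factors (TFs), and their FLI1 and RUNX1 occupancy in mature mouse megakaryocytes (MKs, the cells that release platelets) is described here. The members are all protein-coding genes of the mm9 annotation whose symbol is Hoxa, Hoxb, Hoxc or Hoxd followed by a number, 39 of 22225 protein-coding genes. The rule uses symbols and no measured value, but the gene family was picked for description with earlier results of these data known. They comprise 11 genes of the HoxA cluster on chromosome 6, 10 of HoxB on chromosome 11, 9 of HoxC on chromosome 15 and 9 of HoxD on chromosome 2. The data are 3 libraries of sequenced DNA from wild-type MKs of the CD1 strain, grown for 5 days from fetal liver of embryonic day 15 according to the labels: a ChIP-seq library with FLI1 antibody, one with RUNX1 antibody, and input, which is chromatin that was not precipitated. The study's methods name an earlier embryonic day, another library kit and input chromatin cut with micrococcal nuclease, whereas the labels describe sonication only. Each antibody has 1 library, made from a pool of at least 3 precipitates, so there was no replicate and no test between libraries. All intervals below are 95% intervals for counting error and say nothing of the spread between cultures.

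HOX genes lie in clusters in the order of their numbers, which is also the order in which they are used along the body axis of the embryo, from anterior genes with low numbers to posterior genes with high numbers. Genes of the same number in different clusters are paralogs. In blood, genes such as Hoxa9 and Hoxb4 serve stem and progenitor cells and are turned down as cells mature, and in many differentiated tissues silent HOX clusters are held under Polycomb repression. FLI1 is an ETS family TF that binds DNA around the core GGAA, and RUNX1 binds the letters TGTGGT or, with C at the third place, TGCGGT. Both are needed for MK maturation.

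The FLI1, RUNX1 and input libraries held 62946422, 3973856 and 21745220 usable reads. Spread evenly over the genome, they would put 49.2 FLI1, 3.11 RUNX1 and 17.0 input reads in the 2001 bp around a gene start, so single RUNX1 counts carry wide intervals. The study's supplement lists many more uniquely mapped RUNX1 tags than the RUNX1 file used here holds, and how the counts relate is not given in the sources used here. The start of a gene is the 5′ end of its record in the annotation, and the occupancy at a start is the count of reads within 1 kb of it, divided by depth and by the input count treated likewise, with 1 read added to each count. Adding 1 read raises ratios in the shallow RUNX1 library. At strongly occupied MK genes this scale gave high FLI1 values. Itga2b, which encodes the integrin subunit CD41, had 613 FLI1 and 24 input reads, or 8.48 times input (5.87–13.9). Pf4, a chemokine of platelet granules, had 553 and 26 reads, or 7.09 times input (4.96–11.3). Gp9, a subunit of the von Willebrand factor receptor, reached 4.11 times (2.85–6.61). Of 14 MK marker genes, 10 were at least 2 times input, against 0 of 6 erythroid markers, 3 of 7 granulocyte or macrophage markers and 34.2% of all protein-coding genes, with medians of 3.03, 0.84 and 1.89 times input. The last group includes Mpo, at 4.47 times input (2.73–9.16), and Gata1 among the MK markers was at 0.67 times (0.39–1.27). Occupancy does not give RNA, so which cells the libraries hold could not be checked from transcripts.

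Over whole clusters, FLI1 was near the level of the input, with HoxA the highest of the 4. HoxA (mm9 chr6:52105366-52210874, 105.509 kb) held 3697 FLI1, 239 RUNX1 and 1110 input reads, which is 1.15 times input for FLI1 (1.08–1.23). HoxB (chr11:96055630-96229570, 173.941 kb) held 4756, 270 and 1681 reads, or 0.977 times (0.924–1.03). HoxC (chr15:102751534-102867274, 115.741 kb) held 3362, 204 and 1154 reads, or 1.01 times (0.941–1.08), and HoxD (chr2:74506367-74603200, 96.834 kb) held 2776, 199 and 926 reads, or 1.04 times (0.961–1.12). The 4 clusters thus spanned a narrow range. Among 25151 tiles of 100 kb across the genome the median was 1.03 times, with the 5th and 95th percentiles at 0.701 and 1.38, and 69.6% of tiles lay below HoxA, 40.3% below HoxB, 45.3% below HoxC and 50.4% below HoxD. All 4 clusters therefore lay well inside the spread of ordinary tiles.

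Cluster against cluster, HoxA had 1.18 times the FLI1 over input of HoxB (1.08–1.29), 1.14 times that of HoxC (1.04–1.26) and 1.11 times that of HoxD (1.00–1.23). With intervals widened for the 6 pairs compared, these became 1.05–1.33, 1.01–1.30 and 0.969–1.27, so the pair of HoxA and HoxD included 1. The ratios of HoxB to HoxC, HoxB to HoxD and HoxC to HoxD were 0.971 (0.889–1.06), 0.944 (0.859–1.04) and 0.972 (0.878–1.08), which are differences within counting error. RUNX1 over input was 1.18 in HoxA (1.02–1.36), 0.879 in HoxB (0.770–1.00), 0.967 in HoxC (0.829–1.12) and 1.18 in HoxD (1.00–1.37). The clusters stood in the same order as for FLI1, with HoxA and HoxD side by side. HoxA exceeded HoxB 1.34 times (1.10–1.63, or 1.03–1.74 widened for 6 pairs), HoxB was 0.747 times HoxD (0.609–0.918, or 0.569–0.985), and the 4 other pairs included 1. The GC content, which can change how well DNA is amplified, was 48.9% in HoxB, 49.1% in HoxC and 49.4% in HoxD, and HoxA was less than 2 percentage points above them.

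**Figure D1:**
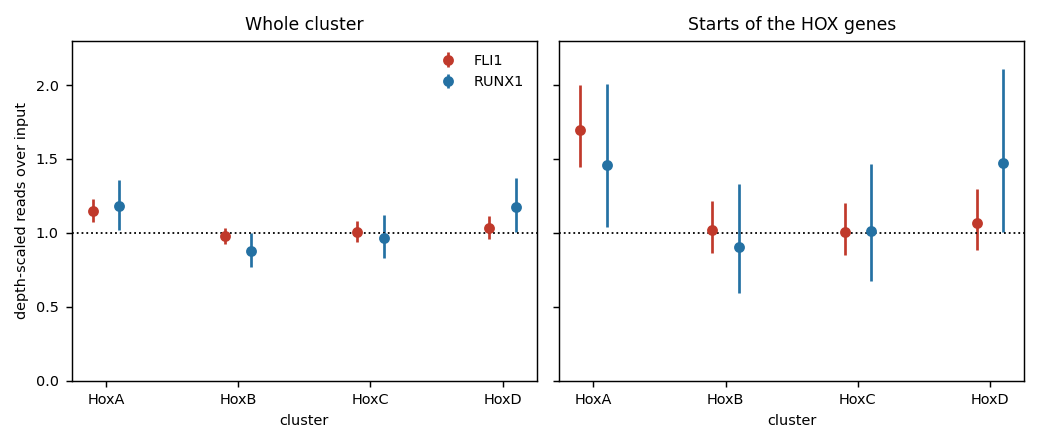
Depth-scaled FLI1 (red) and RUNX1 (blue) reads over input for each HOX cluster, over the whole cluster (left) and pooled over the 2001-bp windows at the starts of its HOX genes (right). Points are ratios, bars are 95% counting intervals and the dotted line is the input level. HoxA starts stand at 1.70 for FLI1, above the 3 other clusters at 1.02, 1.01 and 1.06, whereas the whole clusters lie between 0.977 and 1.15.

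The flanks of 50 kb on either side separated the clusters further. Beside HoxB, FLI1 was 0.800 times input (0.723–0.886) on the side of lower coordinates and 0.827 times (0.748–0.915) on the other, and beside HoxC it was 0.841 (0.760–0.932) and 0.861 times (0.779–0.952). Each of these intervals lay below 1. FLI1 reads per kb were above the genome rate of 24.6, at 25.1 and 26.1 beside HoxB and 26.2 and 27.2 beside HoxC. Input reads per kb were 10.8 and 10.9 beside each of these clusters, against 8.50 over the genome. Relative to the genome rate, input was thus raised further than FLI1 in these flanks. At 1950 bp upstream of the starts of all protein-coding genes, FLI1 and input stood at 1.16 and 1.15 times that rate. Why the ratios beside HoxB and HoxC lay below 1 was not tested. Of the genome tiles, 12.6% and 15.7% lay below the HoxB flanks and 17.6% and 20.3% below the HoxC flanks. Beside HoxA the flanks were at 1.01 (0.914–1.13) and 0.965 times (0.874–1.07), and beside HoxD at 1.12 (1.02–1.24) and 1.01 times (0.910–1.13). The flank of HoxD with the higher value lies beyond Hoxd13 and holds Evx2, a homeobox gene linked to the cluster.

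To find local FLI1 sites, reads were counted in 2234 bins of 400 bp over the clusters and their flanks. A bin was called high with at least 3 times the FLI1 reads expected from the highest of the genome rate (9.84 reads), the input in the bin and the input in the 5 kb around it. Across the genome 0.493% of bins passed. In the HOX windows 9 bins passed (0.403%), and 7 of them lay inside a cluster (0.567% of 1234 bins). HoxA held 5 high bins among its 265 (1.89%), HoxB 2 among 435 (0.460%), and HoxC and HoxD held 0 inside the cluster, with 2 more in the HoxD flank beside Evx2. At the lower limit of 2 times expected, which 1.37% of genome bins passed, HoxA had 16 bins inside the cluster (6.04%), HoxB 11 (2.53%), HoxC 3 (1.03%) and HoxD 2 (0.823%).

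**Figure D2:**
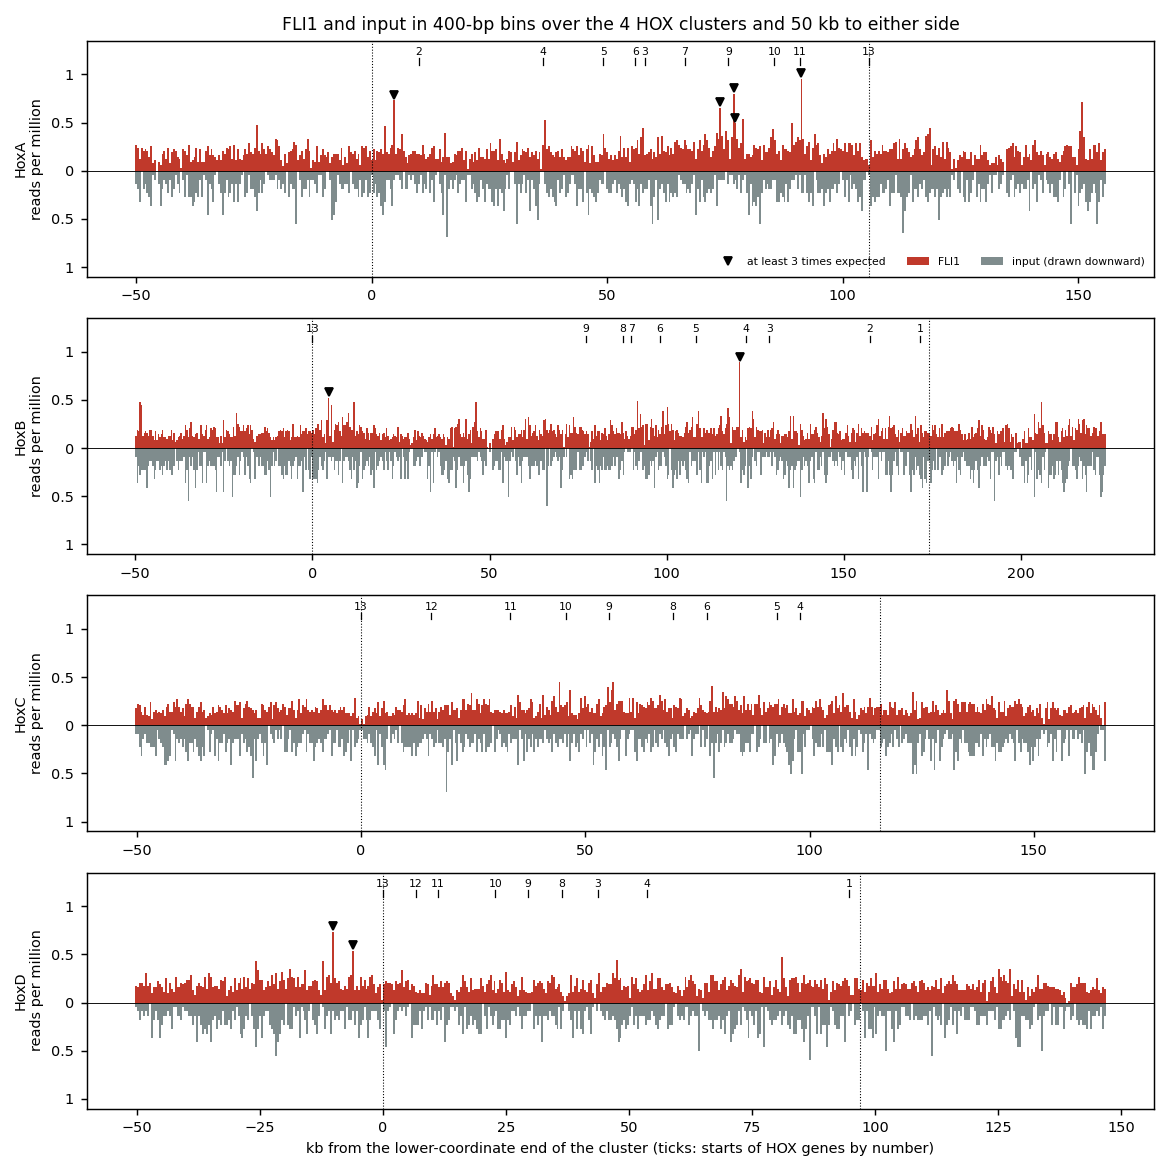
FLI1 reads (red, upward) and input reads (grey, downward) per 1000000 library reads in 400-bp bins over the 4 HOX clusters and 50 kb to either side, against kb from the lower-coordinate end of each cluster (dotted lines mark the cluster ends, ticks with numbers the starts of 38 HOX genes, and the axes differ in length). Triangles mark the 9 bins with at least 3 times the expected FLI1 reads. They stand in HoxA (5), HoxB (2) and the flank of HoxD (2), and the HoxC window has 0.

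Adjacent high bins joined into 8 regions, which carry the local FLI1 signal of the HOX windows and for which reason sequences are shown. Each sequence covers 101 bp around the summit, the point where most extended FLI1 reads overlap, on the plus strand of mm9. Capitals mark ETS forms, which were CAGGAAA with its variant CAGGAAG, likewise CCGGAAA with its variant CCGGAAG, and RUNX forms, which were TGTGGT with its variant TGCGGT. Both strands were searched, so CTTCCGG is the form CCGGAAG read from the minus strand, just as TTTCCGG is the form CCGGAAA. No ETS and RUNX matches overlapped. An ETS form stood in 6 of the 8 regions and in 6.81% of 25331183 windows of 101 bp over the genome. A RUNX form stood in 1 of 8 and in 7.61% of such windows. The genome windows were not matched to the regions in GC content, which ran from 49.5% to 70.3% around the summits. A match is a description of the letters and not a measured site. Of the regions with an ETS form, 5 follow.
Hoxa9 upstream, chr6:52182106-52182134: gggacctaaggCTTCCGGctaagtttacc
Hoxa11 start, chr6:52196496-52196596: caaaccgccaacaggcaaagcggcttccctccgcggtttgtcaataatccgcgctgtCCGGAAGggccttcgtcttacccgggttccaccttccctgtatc
Hoxb13 downstream, chr11:96060041-96060141: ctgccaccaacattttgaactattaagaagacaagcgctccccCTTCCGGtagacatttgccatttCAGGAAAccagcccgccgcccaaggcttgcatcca
Hoxb4 upstream, chr11:96176037-96176137: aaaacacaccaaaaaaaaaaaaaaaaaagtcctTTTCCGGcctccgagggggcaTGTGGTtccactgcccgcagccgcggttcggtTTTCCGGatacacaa
Evx2 coding sequence, chr2:74496017-74496117: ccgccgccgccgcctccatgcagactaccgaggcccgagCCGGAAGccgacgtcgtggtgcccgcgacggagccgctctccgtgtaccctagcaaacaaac

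In HoxA, around Hoxa9, a posterior gene known for its part in stem cell self-renewal and leukaemia, FLI1 was high on both sides of the start used here. That start is the 5′ end of a long record. Both regions lie upstream of the most downstream protein-coding start of Hoxa9, at position 52176150. Upstream, chr6:52182001-52182800 held 81 FLI1, 4 RUNX1 and 5 input reads, or 5.60 times input (2.30–17.7), with bins at 5.08 and 3.15 times expected. Its summit lay 1033 bp upstream of the Hoxa9 start in an untranslated region of Hoxa10, for which reason 29 bases are shown, and an ETS form lay 1 bp from the summit. The region downstream (chr6:52179201-52179600) held 41 FLI1, 1 RUNX1 and 2 input reads, at 4.17 times expected, 1852 bp into the Hoxa9 record and in an exon of the noncoding RP23-329P9.11. None of the ETS forms searched was within 50 bp of its summit. At Hoxa11, chr6:52196401-52196800 held 60 FLI1, 2 RUNX1 and 5 input reads, 4.15 times expected and 4.15 times input (1.68–13.2), with the summit 333 bp upstream of the start in an exon of the antisense RNA Hoxa11as. Of the 8 regions it was the only one whose summit lay within 1 kb of a HOX gene start.

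In HoxB, the region upstream of Hoxb4 (chr11:96176001-96176400) held 56 FLI1, 1 RUNX1 and 1 input reads. With 5.26 times the expected FLI1 reads it was the highest bin in the HOX windows, its summit lay 1911 bp upstream of the Hoxb4 start outside any gene record, and it holds 2 ETS forms and the RUNX form. Hoxb4 expands blood stem cells when forced on, yet its start itself had fewer FLI1 reads than expected (below). The region near Hoxb13 (chr11:96060001-96060400) held 33 FLI1, 1 RUNX1 and 2 input reads, 3.35 times expected, 4461 bp downstream of the start and past the end of that gene's record. The regions beside HoxD both flank the start of Evx2. One lay in its coding sequence, 1851 bp from its start and 10300 bp from that of Hoxd13 (chr2:74496001-74496400), with 46 FLI1, 0 RUNX1 and 2 input reads at 4.67 times expected. The other lay 2126 bp upstream of Evx2 (chr2:74500001-74500400), with 34 FLI1, 0 RUNX1 and 2 input reads at 3.26 times expected and no ETS form. Input counts of 1 to 5 reads per region make the ratios to input uncertain. The 33 to 81 FLI1 reads have a smaller relative counting error. As the bins were picked for FLI1 above the genome rate, their excess over it follows from the choice.

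Leaving the high bins out, a choice made after seeing the data, took FLI1 over input of HoxA from 1.15 to 1.09 (1.02–1.17) and of HoxB to 0.961. Taking out bins chosen for high FLI1 must lower the ratio. No RUNX1 bin reached the limit of 10 times expected and 6 reads. That limit was passed by 0.00935% of genome bins, so a count of 0 among 2234 bins does not set the HOX windows apart. The 8 FLI1 regions held 10 RUNX1 reads in all. The most RUNX1 reads in a bin were 5 in the HoxA window, 6 in HoxB, 4 in HoxC and 6 in HoxD. The HoxB bin lay 10 bp from the Hoxb6 start at 8.21 times expected. The HoxD bin lay 8567 bp from the Hoxd13 start, held the Evx2 start and stood at 9.54 times expected.

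FLI1 of at least 2 times input was less frequent at the starts of HOX genes than at those of protein-coding genes in general, while a ratio above 1 was about as frequent. The median over the 39 members was 1.12 times input and over all genes 1.33 times. The range ran from 0.547 times at Hoxb4 to 3.97 times at Hoxa9, and 26 of 39 members lay above 1, beside 64.1% of all genes. At least 2 times input were 3 of 39 (7.69%), Hoxa9, Hoxa11 and Hoxd3, against 34.2% of all genes. This count became 9 within 500 bp of the start, where 40.3% of all genes passed, and 11 after FLI1 reads were drawn down to the number of RUNX1 reads, where 44.5% passed. Within 1 kb and at full depth, 0 of 39 were at or below 0.5 times, against 7.89% (5.64% of genes with an input read). The counts show the same without the input. The median member had 57 FLI1 and 17 input reads, the median gene 70 and 19, and 28 of 39 members had fewer FLI1 reads than the median gene. Pooled over starts, FLI1 was 1.21 times input for HOX genes (1.11–1.31) and 1.94 times for all genes (1.93–1.94). The pooled value counts strongly occupied genes more than the median does. Counting intervals lay above 1 at 6 of 39 members and below 1 at 2, against 41.8% and 7.09% of all genes.

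HOX starts were not poorer in GC than other starts. Their GC content had a median of 54.5%, from 44.9% to 67.2%, against 51.1% for all genes, and among the 17063 genes in the same GC range 41.2% were at least 2 times input with a median of 1.61 times. Of all genes 627 had no input read in the window. Without them, a comparison added after seeing the data as was the GC range, the median was 1.38 times and 35.1% of genes were at least 2 times input. Across the 39 members, Spearman's rho with GC content was -0.15 for input reads, -0.23 for FLI1 reads and -0.07 for their ratio, and rho between FLI1 and input reads was 0.21. These are descriptions over genes that share the same libraries.

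**Figure D3:**
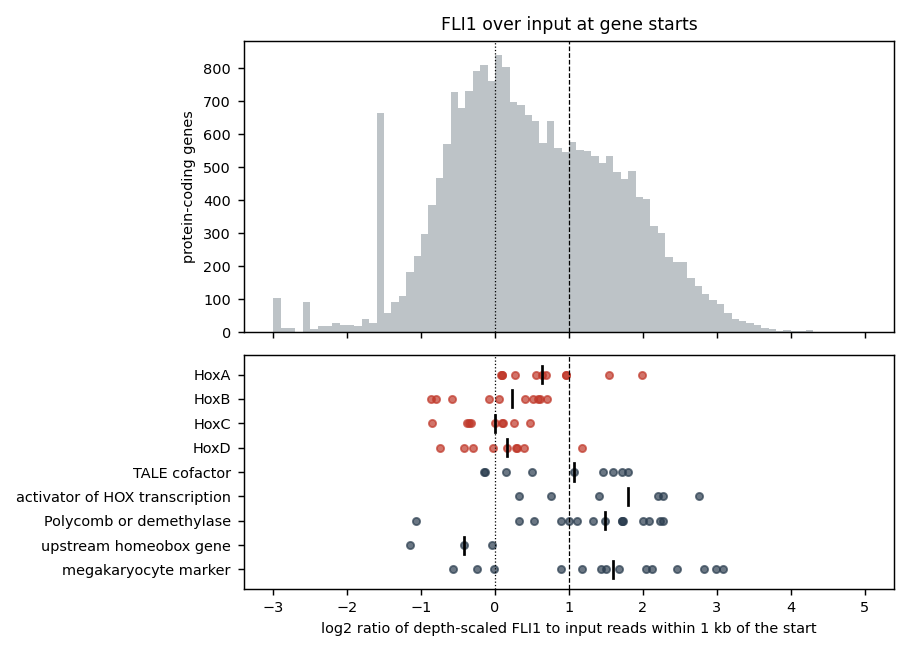
Top: log2 ratio of depth-scaled FLI1 to input reads within 1 kb of the start (1 read added) for all 22225 protein-coding genes, with values beyond the axis drawn at its ends. The narrow column near -1.53 consists of genes with 0 reads in both libraries. Bottom: the same ratio for each HOX gene by cluster (red) and for genes that act with or upon HOX genes and MK markers (dark), with a bar at the median of each row. Lines mark 1 (dotted) and 2 times input (dashed). Most HOX genes sit left of 2 times input, with Hoxa9, Hoxa11 and Hoxd3 to the right of it.

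HoxA starts differed from those of the other clusters. The median was 1.55 times input in HoxA, 1.18 in HoxB, 0.998 in HoxC and 1.12 in HoxD. All 11 HoxA members lay above 1, as did 15 of the 28 others and 64.1% of all genes, and 2 HoxA members had fewer FLI1 reads than the median gene, against 26 of the 28 others. Pooled over starts, FLI1 was 1.70 times input in HoxA (1.45–2.00), 1.02 in HoxB (0.862–1.21), 1.01 in HoxC (0.847–1.20) and 1.06 in HoxD (0.881–1.29). HoxA exceeded HoxB 1.66 times (1.31–2.11, or 1.21–2.28 widened for the 6 pairs), HoxC 1.69 times (1.33–2.14, or 1.22–2.32) and HoxD 1.59 times (1.23–2.05, or 1.13–2.23). These intervals exclude 1, and those of the 3 pairs among HoxB, HoxC and HoxD include it. Without Hoxa9 and Hoxa11, left out after their values were seen, HoxA starts remained at 1.40 times the other clusters (1.14–1.72). The pooled value of all 39 members was then 1.13 times input (1.03–1.23), and outside HoxA it was 1.03 times (0.929–1.14).

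**Figure D4:**
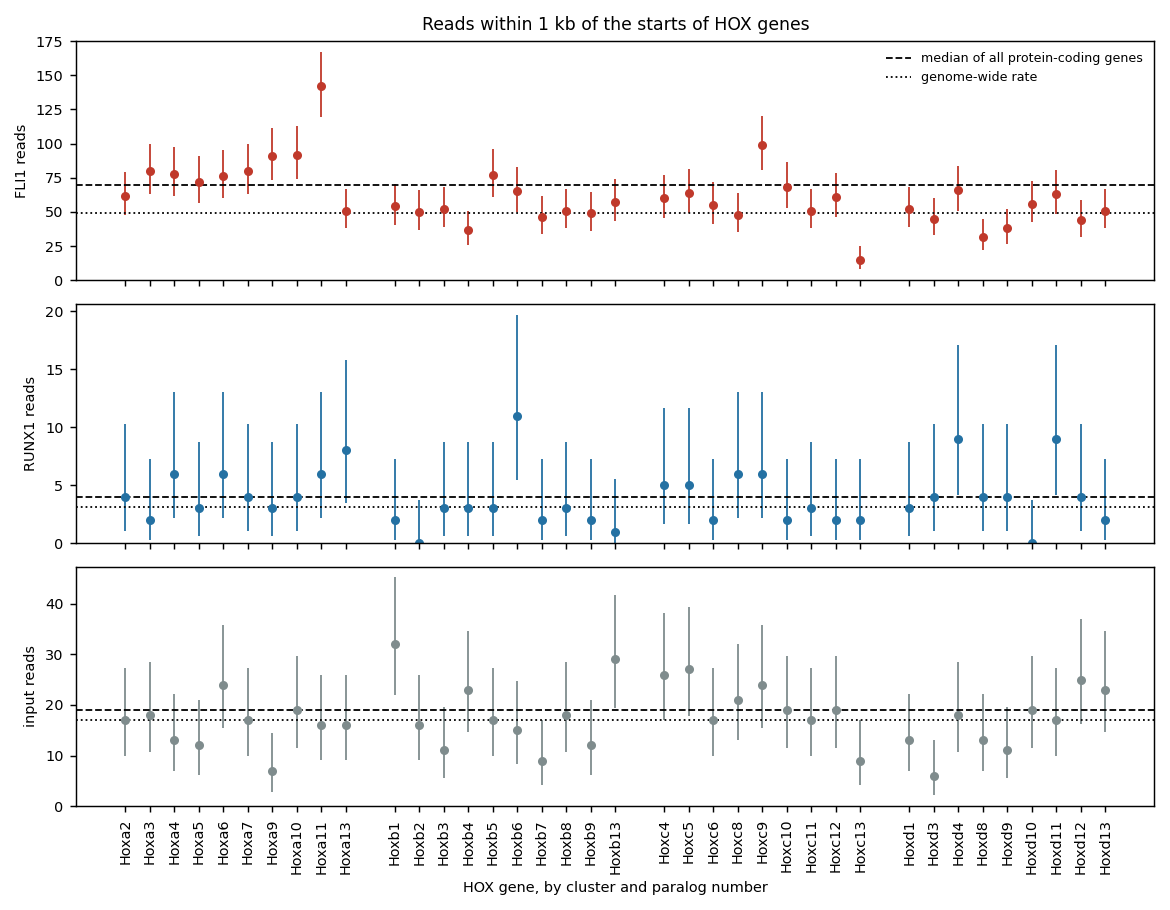
FLI1 (top), RUNX1 (middle) and input reads (bottom) within 1 kb of the starts of 38 HOX genes, ordered by cluster and number. Points are read counts, bars are exact 95% Poisson intervals, dashed lines the median of all protein-coding genes and dotted lines the count that the genome-wide rate gives. FLI1 counts run from 15 at Hoxc13 to 142 at Hoxa11, and HoxA is the cluster in which most genes reach the median of 70.

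Among posterior HoxA genes, Hoxa9 (minus strand, start at chr6 position 52181088) had 91 FLI1, 3 RUNX1 and 7 input reads, or 3.97 times input (2.09–11.5). Its FLI1 count lay above 58.7% of genes and its input count above only 6.79%, so the low input raises its ratio. Hoxa11 (start 52196213) had 142 FLI1, 6 RUNX1 and 16 input reads, or 2.91 times input (1.82–5.51), and its FLI1 count was the highest of the 39 and above 73.5% of genes. Hoxa11 patterns the forearm and kidney, and mutations of its human counterpart cause a syndrome of fused forearm bones with missing megakaryocytes. Hoxa10, which acts in lumbar vertebrae and the uterus, had 92 FLI1, 4 RUNX1 and 19 input reads, or 1.61 times input (1.01–2.90). Hoxa13, which acts in digits and the urogenital tract and lies at the end of the cluster, was its lowest member with 51 FLI1, 8 RUNX1 and 16 input reads, or 1.06 times (0.618–2.07). The intervals of Hoxa9 and Hoxa11 overlap, and that of Hoxa9 lies above those of Hoxa6 and Hoxa13.

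The start of Hoxa9 depends on the transcript. Its most downstream protein-coding start lies 4938 bp away at position 52176150, where 86 FLI1, 8 RUNX1 and 25 input reads gave 1.16 times input (0.754–1.94). The FLI1 counts of both starts differ little, and the input counts differ by more than 3 times. For Hoxa10, the downstream start 5915 bp away had 75 FLI1 and 21 input reads, or 1.19 times. In all, 11 members have such a start more than 1 kb away.

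Among central HoxA genes, Hoxa4 had 78 FLI1, 6 RUNX1 and 13 input reads, or 1.95 times input (1.14–4.07), and Hoxa5, which acts in lung and axial skeleton, had 72, 3 and 12 reads, or 1.94 times (1.12–4.2). Hoxa7 had 80 FLI1 and 17 input reads (1.55 times) and Hoxa6 76 and 24 reads (1.06 times). Of the anterior genes, Hoxa3, which is needed for thymus and parathyroid, stood at 1.47 times (0.912–2.72) with 80 FLI1 and 18 input reads. Its long record puts the start used here (52163338) between those of Hoxa6 and Hoxa7, so that its class follows its number and not its place. Its window and that of Hoxa6 overlap, as their starts lie 1983 bp apart. Hoxa2, which specifies the second branchial arch, stood at 1.21 times with 62 and 17 reads. Pooled by position, FLI1 over input in HoxA was 1.27 for the 3 anterior (0.953–1.72), 1.60 for the 4 central (1.22–2.12) and 2.24 for the 4 posterior genes (1.69–3.01). The last value rests on Hoxa9 and Hoxa11, without which the other 2 posterior genes pooled to 1.41 (0.970–2.11). Across the 4 clusters together the same classes stood at 1.19 (0.980–1.44), 1.16 (1.01–1.33) and 1.26 (1.10–1.44), which do not differ beyond counting error. Pooled by number, the 13 groups of paralogs ran from 0.781 times input for number 13 (0.594–1.03) to 1.77 times for number 9 (1.32–2.42). Numbers 11 and 3 were level with number 9, at 1.77 (1.30–2.45) and 1.75 times (1.21–2.59). Numbers 9 and 3 include Hoxa9 and Hoxd3, whose input counts were low. At their most downstream starts, Hoxa9 stood at 1.16 times input, and Hoxd3 and Hoxb3 at 0.785 and 0.710 times. The groups of paralogs were not pooled at those starts.

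HoxB held 0 of 10 members at or above 2 times input, against 34.2% of all genes. Its highest were Hoxb7, with 46 FLI1, 2 RUNX1 and 9 input reads or 1.62 times (0.854–4.10), Hoxb3, with 52, 3 and 11 reads or 1.53 times (0.842–3.47), and Hoxb5, a gene used to mark long-term blood stem cells, with 77, 3 and 17 reads or 1.50 times (0.917–2.82). The FLI1 counts of Hoxb7 and Hoxb3 lay close to the 49.2 reads of the genome rate, whereas Hoxb5 was the one HoxB member above the median gene. At the other end, Hoxb4 had 37 FLI1, 3 RUNX1 and 23 input reads, or 0.547 times (0.322–0.980), and Hoxb1, which specifies a hindbrain segment, had 54, 2 and 32 reads, or 0.576 times (0.370–0.933). Those are the 2 members whose FLI1 interval lay below 1. The high region upstream of Hoxb4 was outside its window of 1 kb.

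In HoxC, 0 of 9 members reached 2 times input for FLI1, against 34.2% of all genes. Hoxc9, which acts in the thoracic spinal cord, was the highest with 99 FLI1, 6 RUNX1 and 24 input reads, or 1.38 times (0.905–2.33), followed by Hoxc10 with 68, 2 and 19 reads (1.19 times, 0.735–2.18) and Hoxc6 with 55, 2 and 17 reads (1.07 times, 0.639–2.05). The FLI1 count of Hoxc9 was second to that of Hoxa11 among all 39 members, and its input count was also above the median gene. Hoxc13, a gene of hair and nails, was the lowest at 0.553 times (0.236–1.49) with 15 FLI1, 2 RUNX1 and 9 input reads, and had the fewest FLI1 reads of any HOX gene.

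In HoxD, Hoxd3 stood at 2.27 times input (1.10–7.43) with 45 FLI1, 4 RUNX1 and 6 input reads. Its FLI1 count was below the 49.2 reads of the genome rate and its input count was the lowest of the 39, so this value rests on the input. At the downstream start of Hoxd3, 33745 bp away, 49 FLI1, 6 RUNX1 and 21 input reads gave 0.785 times (0.474–1.42). Hoxd1 followed at 1.31 times (0.742–2.77) with 52, 3 and 13 reads and Hoxd11, which acts with Hoxa11 in the forearm, at 1.23 times (0.740–2.33) with 63, 9 and 17 reads. Hoxd12 was the lowest at 0.598 times (0.364–1.04) with 44, 4 and 25 reads. All 9 HoxD members had fewer FLI1 reads than the median gene.

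RUNX1 at HOX starts had a median close to that of other genes when reads were shifted (without the shift, 0.34 against 0.67 on the log2 scale), and how often it reached 2 times input relative to them depended on the window. The median was 1.52 times input over the 39 members and 1.60 times over all genes, and 9 of 39 members (23.1%) were at least 2 times input against 36.7% of all genes. The gap was smaller in some other settings. The count became 18 (46.2%) within 500 bp, where 50.1% of all genes passed, and 22 (56.4%) with 5 added reads, where 62.2% passed. It stayed at 9 within 2 kb, where 21.6% of all genes passed and the order turned. With genes lacking input reads left out 34.8% of genes passed, and in the GC range of HOX starts 37.9%. At or below 0.5 times were 4 of 39 members and 6.29% of all genes (6.48% of those with an input read). Counts were small, with a median of 3 reads at HOX starts and 4 at all genes, and a pooled value of 1.20 times input (0.997–1.43) against 1.51 times (1.50–1.52). The members at least 2 times input were Hoxa4, Hoxa9, Hoxa11, Hoxa13, Hoxb6, Hoxd3, Hoxd4, Hoxd9 and Hoxd11, with 3 to 11 RUNX1 reads each. Counting intervals lay above 1 at 4 of 39 members and below 1 at 0, against 16.0% and 1.25% of all genes. Hoxb6, expressed along the trunk of the embryo, had the most with 11 RUNX1 reads beside 15 input reads, or 4.10 times (1.67–9.35), and the bin at its start is the one described above. Hoxd11 had 9 RUNX1 and 17 input reads, or 3.04 times (1.14–6.87), and Hoxa13 had 8 and 16 reads, or 2.90 times (1.01–6.78). Hoxd4, with 9 and 18 reads, stood at 2.88 times (1.08–6.41). Some of these values depend on the start used. At its most downstream start, Hoxb6 had 2 RUNX1 and 21 input reads, or 0.746 times (0.059–2.13). Hoxd11 had 2 and 8 reads at its own, or 1.82 times (0.142–6.86). Hoxd4 had 7 and 15 reads, or 2.74 times (0.881–6.65). Hoxa9, Hoxa11 and Hoxd3, the 3 members at least 2 times input for FLI1, were all among the 9 members high in RUNX1. The other members high in RUNX1 were below 2 times input for FLI1. Both ratios use the same input count, which was low at Hoxa9 (7 reads) and Hoxd3 (6 reads). The share of all genes high in both was not computed. Hoxb2 and Hoxd10 had 0 RUNX1 reads, with intervals that reach 1.42 and 1.17 times input.

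Pooled over starts, RUNX1 was 1.46 times input in HoxA (1.04–2.01), 0.902 in HoxB (0.592–1.33), 1.01 in HoxC (0.674–1.47) and 1.47 in HoxD (1.01–2.11). The intervals of all 6 pairs of clusters included 1, the widest difference being HoxB at 0.614 times HoxD (0.350–1.07). FLI1 over RUNX1, a comparison of precipitates alone that does without the input, had a median of 0.836 at HOX starts and 0.947 at all genes. Adding 1 read lowers this ratio, as RUNX1 counts are small, so medians below 1 do not show more RUNX1 than FLI1. Pooled without the added read, FLI1 and RUNX1 were 1.21 and 1.20 times input at HOX starts. At all genes they were 1.94 and 1.51 times. The order of the median at HOX starts and at all genes turned without the shift of reads, where the log2 medians were -0.0082 and -0.071. With the downstream start they were level at -0.13 and -0.12. FLI1 over RUNX1 was at least 2 times at 2 of 39 members, Hoxb2 and Hoxd10, which had no RUNX1 read, against 13.0% of all genes, and within 2 kb at 5 of 39 (12.8%) against 8.44%. Its interval lay below 1 at 2 of 39 members, Hoxb6 (0.347, 0.195–0.784) and Hoxa13 (0.365, 0.190–0.982), against 577 of 22225 genes. It lay above 1 at 0 of 39 members, against 2390 of 22225 genes.

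The shape of the signal around starts differed too. Within 500 bp of the start, FLI1 stood at 2.80 times its genome-wide rate over all genes and at 1.35 times between 500 and 2000 bp. For HOX genes both values were 1.28 times, so the 39 starts together showed no FLI1 peak. HoxA starts had 1.84 times within 500 bp and 1.55 times beyond. RUNX1 at HOX starts was 1.49 times within 500 bp and 1.20 times beyond, against 1.97 and 1.29 times at all genes. The input fell towards HOX starts, from 1.17 times beyond 500 bp to 0.899 times within, and from 1.31 to 0.845 times at HoxA starts, while at all genes it went from 1.16 to 1.08 times. Ratios to input near HOX starts are raised by this dip, and its part in the HoxA values was not tested.

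**Figure D5:**
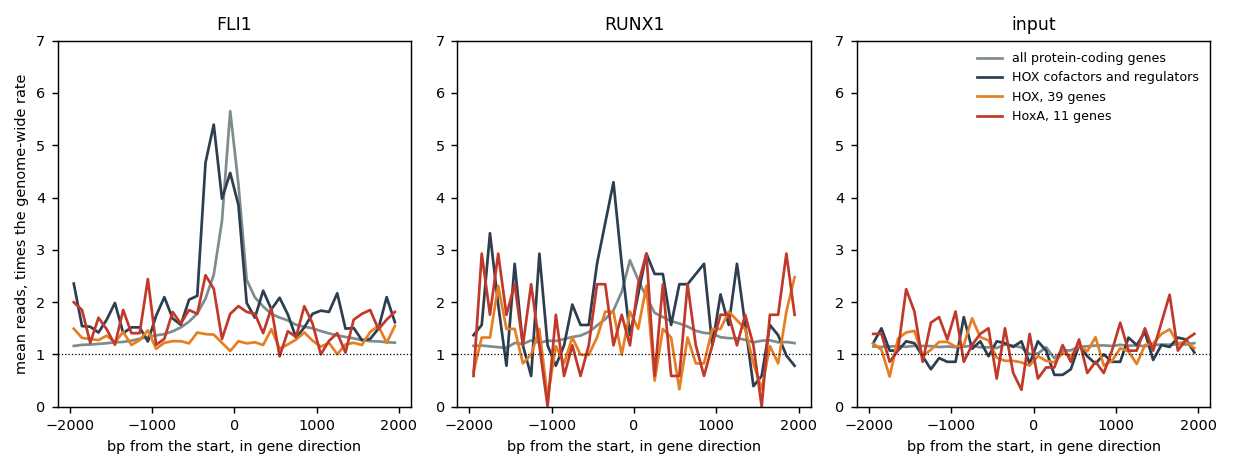
Mean reads in 100-bp steps from 2000 bp upstream to 2000 bp downstream of the start, in the direction of the gene, as multiples of each library's genome-wide rate (dotted line), for FLI1, RUNX1 and input. Lines are all protein-coding genes (grey), 33 HOX cofactors and regulators (dark), 39 HOX genes (orange) and 11 HoxA genes (red). FLI1 peaks at the start of all genes, with 5.65 times in the step 50 bp upstream. For regulators its highest step, with 5.39 times, lies 250 bp upstream of the start. The HOX line has no such peak and averages 1.28 times both within and beyond 500 bp. Single RUNX1 steps are noisy for the small gene sets.

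Between the HOX genes lie noncoding and other genes, of which 37 records start in the windows, 28 of them inside a cluster. Of the 37, 32 are not protein-coding. At least 2 times input for FLI1 were 0 of the 5 protein-coding genes, against 34.2% of all protein-coding genes. Of the 32 that are not protein-coding, 3 passed, near the 9.37% of 11730 such records in the genome (a background added after seeing the data). All 3 start within 1 kb downstream of the Hoxa9 start. Mir196b, which encodes a microRNA, had 127 FLI1, 1 RUNX1 and 10 input reads, or 4.02 times (2.31–9.37), the highest ratio at a gene start in the 4 windows. RP23-329P9.11 and the pseudogene 9930038K12Rik start next to each other and shared 92 FLI1, 2 RUNX1 and 8 input reads, or 3.57 times (1.93–9.48). These windows overlap that of Hoxa9 and are not separate observations. The other HOX microRNA genes, named after their values were seen, were lower, with Mir10a at 0.677, Mir10b at 1.04, Mir196a-1 at 0.909, Mir196a-2 at 0.717 and Mir615 at 1.07 times input. The mature microRNAs of the Mir10 and Mir196 genes fall into 2 seed families, shown because members of the same seed lie in different clusters. The FLI1 interval of Mir196b lay above those of Mir196a-1 (0.538–1.72) and Mir196a-2 (0.451–1.21), whereas those of Mir10a (0.415–1.18) and Mir10b (0.614–1.98) overlapped. The Mir196b window holds the high FLI1 bin chr6:52179201-52179600 described above, so its contrast with the Mir196a genes is not separate from the choice of that bin. The sequences are from RefSeq (GRCm38.p6), with the seed, bases 2 to 8, in capitals.
mmu-miR-196b-5p (HoxA): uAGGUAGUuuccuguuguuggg
mmu-miR-196a-5p (HoxB and HoxC): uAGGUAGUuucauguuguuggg
mmu-miR-10a-5p (HoxB): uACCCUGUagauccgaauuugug
mmu-miR-10b-5p (HoxD): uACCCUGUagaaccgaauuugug

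RUNX1 was at least 2 times input at 2 of the 32 neighbours that are not protein-coding, against 25.3% of such records. It was so at 3 of the 5 protein-coding ones, against 36.7% of all protein-coding genes. The highest, named after its value was seen, was Evx2 with 14 RUNX1 and 14 input reads, or 5.47 times (2.42–12.4), more RUNX1 reads than at any HOX start. The window at the Evx2 start includes the HoxD bin with the most RUNX1 reads, given above. FLI1 at that start was 1.15 times input with 49 reads (0.657–2.37), although both high FLI1 regions of the HoxD flank lie within 2126 bp of it.

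Genes that act with or upon HOX genes were more often at least 2 times input for FLI1 at their 5′ ends than the HOX genes. Of a list of 34 such genes 33 were found in the annotation, with a median of 2.49 times input. At least 2 times input were 19 of 33 (57.6%), beside the 34.2% of all genes, and 27 of 33 lay above 1, beside 64.1%. The starts of the list had a median GC content of 57.5%, against 51.1% for all genes. Among genes in the GC range of HOX starts 41.2% passed, with a median of 1.61 times. The part of GC content in the difference was not tested. The difference from all genes depends on which start is used. With the most downstream start of each gene in place of the 5′ end, 10 of 33 regulators, 2 of 39 HOX genes and 27.7% of all genes were at least 2 times input, and the median on the log2 scale was 0.37 for the list and 0.19 for all genes. Pooled over starts, FLI1 was 2.42 times input (2.22–2.64) and RUNX1 2.16 times (1.84–2.52), and 18 of 33 were at least 2 times input for RUNX1 (54.5%, beside 36.7% of all genes). The list was drawn up with earlier results of these data known. Of 6 activators of HOX transcription 4 passed for FLI1, of 15 Polycomb proteins and demethylases 10, of 9 TALE homeodomain cofactors 5, and of 3 Cdx genes, which switch on HOX genes in the embryo, 0.

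Mll1, a histone H3 lysine methyltransferase that keeps HOX genes active, had the highest FLI1 ratio of the list, 6.78 times input (3.96–15.7), with 215 FLI1, 7 RUNX1 and 10 input reads. Wdr5, a subunit of the same complexes, had 391 FLI1, 19 RUNX1 and 27 input reads, or 4.84 times (3.39–7.69), and Dot1l, a methyltransferase of H3 lysine 79 in transcribed genes, had 199, 9 and 14 reads, or 4.61 times (2.86–9.15). Among genes of the opposing Polycomb system, Rnf2, the ubiquitin ligase of its first complex, stood at 4.84 times (2.66–12.8) with 125, 3 and 8 reads, and Suz12, a core subunit of the second complex, at 4.23 times (2.53–8.99) with 158, 5 and 12 reads. Kdm6a, a demethylase that removes the Polycomb mark, stood at 4.68 times (2.57–12.4) with 121, 4 and 8 reads. The lowest were Cdx1, at 0.452 times (0.263–0.800) with 33, 5 and 25 reads, and Cbx7, a reader of the Polycomb mark, at 0.478 times (0.281–0.843) with 35, 1 and 25 reads. Activators and repressors of HOX genes were thus both among the highest values, and 10 of 33 had fewer FLI1 reads than the median gene, against 28 of 39 HOX genes.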

How the data were processed

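FLI1, RUNX1 and input DNA of mature MKs were sequenced, 1 library each, with no replicates. Alignment to mm9 was done by the authors with Bowtie (version not given in the sources used here), who retained unique, non-redundant reads. MACS 1.4 and SICER 1.1, named in the submitters' processing notes, were not used here. The deposited files give the chromosome, start, end and strand of each read, which are positions and not a signal. All counts and ratios were made from them here with Python 3.11.15, numpy 2.4.6, scipy 1.17.1, pandas 2.3.3 and matplotlib 3.10.9. The bases in the ChIP files matched the mm9 reference with at most 3 mismatches in 97.0% (FLI1) and 98.1% (RUNX1) of 200000 reads. Reads are 50 bp long in the ChIP files and 34 bp in the input. Repeated positions (3.24% of input reads, 0 in the ChIP files) and chromosome M were left out, which left the read numbers given above. The remaining reads were moved by 0.5 of the fragment length (126, 157 and 159 bp for FLI1, RUNX1 and input).

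Starts are the 5′ ends of gene records in GENCODE M1 on mm9, the longest record per symbol. Ratios are scaled to library totals. Intervals are exact (conditional binomial for ratios to input, conditional odds ratio between clusters, Bonferroni for 6 pairs) and computed without the added read. Tiles of 100 kb needed 100 input reads. Sequences are from the mm9 reference and RefSeq. The counting steps were tested on simulated data.

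The members and lists were chosen with earlier results of these data known. Genes named are, per cluster, the 3 highest and the lowest in FLI1 over input, any member at least 2 times input or with a high bin within 1 kb of the start, genes starting within 1 kb of a high bin, the 6 highest and 2 lowest regulators, and Gp9, Itga2b and Pf4. The single values of 1 member, with the FLI1 region nearest to it, and of 1 marker are not reported here. Others with 2 times input or more for RUNX1, or named for their paralogs or function, were added after their values were seen. Of the regulators listed, 1 was not found under its symbol in the annotation as Mll1 and Kmt2a name the same gene. Alternatives were windows of 500 bp and 2 kb, other starts, 5 added reads, unshifted reads, kept repeats, scaling to 10-kb bins, thinned FLI1, other bin limits, offsets and expectations, and flanks.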

Additional observations from a re-analysis of the deposited data

How the results depend on the processing

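In 85 of 114 alternatives the value moved by no more than counting error or the spread set for it, and 29 moved further. No cluster ratio whose interval lay on one side of 1 moved to the other side, but some intervals came to include 1, namely HoxA FLI1 with FLI1 thinned (1.08, 0.934–1.25) and HoxA RUNX1 with flanks (1.08, 0.967–1.20) or without the high bins (1.15, 0.996–1.33). No paired analysis was possible because each antibody has 1 library, and for the same reason no replicate could be left out. On the log2 scale the median of FLI1 over input at HOX starts was 0.17 (0.41 over all genes). It moved to -0.048, past the level of the input, with 5 added reads (0.19) and to 0.64 with FLI1 thinned to the RUNX1 depth (0.87), and stayed below that of all genes in every setting run. Members at least 2 times input, 3 at first (34.2% of all genes), became 9 within 500 bp (40.3%), 5 with repeated input reads kept (34.6%) and 11 with FLI1 thinned (44.5%). The RUNX1 median of 0.60 (all genes 0.67) became 0.87 within 500 bp (1.01), 0.26 within 2 kb (0.41), 0.34 with the downstream start (0.53), 1.05 with 5 added reads (1.20) and 0.34 without the shift (0.67), and its 9 members at least 2 times input (36.7% of all genes) became 18 within 500 bp (50.1%) and 22 with 5 added reads (62.2%). FLI1 over RUNX1 had a median of -0.26, which became -1.09 with 5 added reads and -0.0082 without the shift (all genes -0.079, -0.89 and -0.071), and its count of 2 (13.0% of all genes) became 5 within 2 kb (8.44%) and 0 with 5 added reads (1.50%). For regulators the median of 1.32 became 1.48 within 500 bp, 1.13 within 2 kb, 0.37 with the downstream start and 1.05 with 5 added reads, and the count of 19 fell to 10 with the downstream start (27.7% of all genes). With 50 kb to either side, FLI1 over input was 1.07 for HoxA, 0.913 for HoxB and 0.931 for HoxC, the last 2 with intervals now below 1 (0.874–0.954 and 0.887–0.978), as was that of HoxB for RUNX1 (0.766–0.941), and with FLI1 thinned it was 0.872 for HoxC. The 9 high FLI1 bins of 2234 (0.493% of genome bins) became 2 at 5 times expected (0.206%) and 38 at 2 times (1.37%). With no genome share computed, they became 20 against the genome rate alone and 103 with FLI1 thinned, where the genome rate is under 1 read per bin. The cause of these changes was not tested, except that added reads weigh more where counts are low. RUNX1 ratios thus depend on the window and the added read. The RUNX1 depth of 3.11 expected reads per start limits every statement on RUNX1 at single genes. The low input counts at Hoxa9 and Hoxd3 limit the ratios to input of these genes.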
